A study of Mus musculus with 3 samples.

Results

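The genes described here are 9 mouse genes of mast cells and basophils, out of 28074 gene symbols measured. They were chosen by symbol, but with earlier results of these data known. The set holds 6 granule proteases (Cpa3, Mcpt8, Prss34, Mcpt4, Cma1 and Tpsb2) and 2 chains of the high-affinity receptor for IgE (Fcer1a and Ms4a2). The last is Hdc, the enzyme that makes histamine. Mast cells and basophils are granulocytes that store histamine and proteases in granules and release them when antigen crosslinks IgE bound to its receptor on their surface. Basophils mature in the bone marrow and circulate, whereas mast cell progenitors leave the blood and mature in tissues, where their protease content depends on the site. Both arise from c-Kit-bearing progenitors that use the transcription factor Gata2, and mast cells keep c-Kit while mature basophils carry little of it.

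RNA was sequenced from 3 acute myeloid leukemias, taken from the spleens of separate moribund animals that together form 1 group. The genotype field gives miR-196b-/-, Dnmt3a fl/fl, Flt3 ITD/ITD and Mx1Cre, while the titles give Dnmt3a+/-. The microRNA miR-196b is deleted, Flt3 ITD is an activating internal duplication in the Flt3 receptor, and Mx1Cre is a recombinase driven by an interferon-inducible promoter that acts in blood cells and in other tissues. Cells bearing c-Kit were enriched on magnetic beads, which would keep mast cells as well as leukemic progenitors; ages are not given in the sources used here. The leukemias with intact miR-196b that the study set beside these come from another series and are not analysed here, so no effect of the deletion was measured. The mice are numbered 1, 2 and 3 in the order of their sample records.

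Values are TPM, a transcript level scaled to transcript length and to a fixed total per library. The columns summed to between 927169 and 929731 TPM, 30000000 reads were planned per library, and TPM keeps no read depth, so no counting interval can be given and the spread between mice is the only error. Kit, the gene of the enrichment marker, stood at 139, 149 and 133 TPM in mice 1, 2 and 3, and the myeloid progenitor enzyme Mpo at 1081, 864 and 1632 TPM. In bulk RNA, more cells of a type and more RNA per cell cannot be told apart.

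The 9 genes fell into 5 that were present and 4 that were at or near 0 TPM. Cpa3, Mcpt8 and Hdc were each above 12 TPM in every mouse, Prss34 and Ms4a2 were near 3 and 1 TPM, and Fcer1a, Mcpt4, Cma1 and Tpsb2 never exceeded 0.1 TPM. A TPM of at least 1 in all 3 mice was reached by 4 of the 9 genes (44.4%), against 50.7% of all genes. The median over the 9 genes came to 1.03 ± 0.23 in log2(TPM + 1) units (SD, n = 3), against 1.39 ± 0.03 over all genes. As a list they were thus not more often detected than other genes, and their levels were split between a group that was present and a group that was not.

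**Figure D1:**
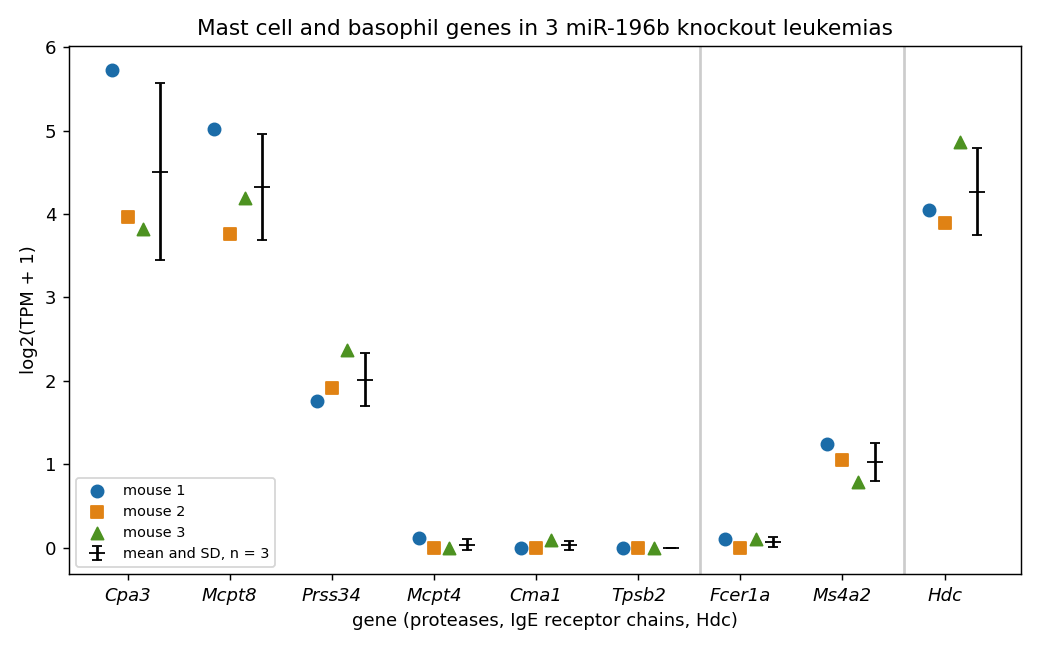
Level of each gene on the log2(TPM + 1) scale (vertical axis) in the 3 leukemias, with the mean and SD beside the points; grey lines separate the proteases, the IgE receptor chains and Hdc. Cpa3 and Mcpt8 are highest in mouse 1, Hdc and Prss34 in mouse 3, and Mcpt4, Cma1, Tpsb2 and Fcer1a lie at or close to 0.

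Cpa3 encodes carboxypeptidase A3, a granule enzyme of mast cells and basophils that is also transcribed in blood progenitors. It lies at chr3:20215620-20242181 (GRCm38, minus strand). Its level was 51.9, 14.6 and 13.2 TPM in mice 1, 2 and 3, a mean of 26.6 ± 22.0 TPM (SD, n = 3), at percentile 78.9 of all genes. Mouse 1 stood apart and the other mice were close to each other: mouse 1 exceeded mouse 2 by a factor of 3.56 and mouse 3 by a factor of 3.94. Set against Kit in the same library, Cpa3 reached 37.2% of the Kit level in mouse 1, 9.78% in mouse 2 and 9.90% in mouse 3.

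Mcpt8 encodes a granule protease used as a marker of mouse basophils and lies at chr14:56082166-56085273 (minus strand). Its level was 31.4, 12.5 and 17.3 TPM, a mean of 20.4 ± 9.78 TPM (SD, n = 3). Mouse 1 was again the highest, at 2.50 times mouse 2 and 1.81 times mouse 3, but mouse 3 exceeded mouse 2, unlike for Cpa3. The ratio of Mcpt8 to Cpa3 was 0.604, 0.859 and 1.32 in mice 1, 2 and 3, so that Mcpt8 was the lower transcript in mice 1 and 2 and the higher one in mouse 3.

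Hdc, histidine decarboxylase, makes histamine in mast cells and basophils and is also transcribed in immature myeloid cells. It lies at chr2:126593667-126619299 (minus strand). Its level was 15.6, 13.9 and 28.0 TPM, a mean of 19.2 ± 7.71 TPM (SD, n = 3). The order of mice differed from that of Cpa3: mouse 3 exceeded mouse 1 by a factor of 1.79 and mouse 2 by a factor of 2.02. The ratio of Hdc to Cpa3 was 0.301, 0.949 and 2.13, a 7.08-fold range over the mice.

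Prss34 encodes a tryptase-like protease of basophils and lies at chr17:25298394-25300165 (plus strand). Its level was 2.38, 2.76 and 4.16 TPM, a mean of 3.10 ± 0.939 TPM (SD, n = 3). Mouse 3 was the highest, at 1.75 times mouse 1, so this basophil protease did not share the order of Mcpt8. The ratio of Prss34 to Mcpt8 was 0.0758 in mouse 1, 0.220 in mouse 2 and 0.240 in mouse 3.

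Of the IgE receptor genes, Ms4a2 encodes the beta chain, which amplifies the signal, and lies at chr19:11615523-11623719 (minus strand). Its level was 1.37, 1.08 and 0.733 TPM, a mean of 1.06 ± 0.321 TPM (SD, n = 3), with mouse 1 at 1.87 times mouse 3. Fcer1a encodes the alpha chain, which binds IgE, and lies at chr1:173221284-173227214 (minus strand). Its values were 0.0790 TPM in mouse 1 and 0.0731 TPM in mouse 3, and mouse 2 had a listed value of 0. The gamma chain gene Fcer1g, which many myeloid cells use for other Fc receptors, stood at 229, 257 and 259 TPM, so it exceeded Ms4a2 by a factor of 166 in mouse 1 and 353 in mouse 3. The chain that the receptor shares with other receptors was thus abundant, and the chain that binds IgE was near 0 in each library.

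The chymases Mcpt4 and Cma1 and the tryptase Tpsb2 were at or near 0, unlike the mast cell protease Cpa3. Mcpt4, a chymase of connective tissue mast cells at chr14:56059629-56062313 (minus strand), had 0.0826 TPM in mouse 1 and a listed value of 0 in mice 2 and 3. Cma1, a second chymase at chr14:55941451-55944675 (minus strand), had 0.0691 TPM in mouse 3 and a listed value of 0 in mice 1 and 2. Tpsb2, a mast cell tryptase at chr17:25366305-25369098 (plus strand), was listed at 0 in all 3 mice, as were 22.8% of all genes. No direction between mice can be read from such values.

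In order of mean level the genes ran Cpa3, Mcpt8, Hdc, Prss34, Ms4a2, and then the near-zero genes. The ranges of Cpa3, Mcpt8 and Hdc over the mice overlapped, so these neighbours did not differ beyond their spread. The lowest Hdc value (13.9 TPM) was above the highest Prss34 value (4.16 TPM), the lowest Prss34 value (2.38 TPM) above the highest Ms4a2 value (1.37 TPM), and the lowest Ms4a2 value (0.733 TPM) above any value of Fcer1a, Mcpt4, Cma1 and Tpsb2.

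Gata2, described below, was higher in the mouse with the most Cpa3 and Mcpt8, and this prompted a look at the sequences before the genes. Gata1 and Mitf had other mice at the top, and a part of any factor in these levels was not tested. The stretches of 250 bases before the RefSeq starts of the 5 genes with a mean of at least 1 TPM are shown. RefSeq on GRCm38.p6 gave such a stretch for 8 of the 9 genes. They were searched on both strands for 4 words that GATA factors can bind, namely the word AGATAA with its variant AGATAG and then the word TGATAA with its variant TGATAG; matches were printed in capitals, each sequence running toward the gene's start. The stretches are chr3:20242182-20242431 (minus strand) for Cpa3, chr14:56085198-56085447 (minus) for Mcpt8, chr2:126618679-126618928 (minus) for Hdc, chr17:25298144-25298393 (plus) for Prss34 and chr19:11623720-11623969 (minus) for Ms4a2.
Cpa3: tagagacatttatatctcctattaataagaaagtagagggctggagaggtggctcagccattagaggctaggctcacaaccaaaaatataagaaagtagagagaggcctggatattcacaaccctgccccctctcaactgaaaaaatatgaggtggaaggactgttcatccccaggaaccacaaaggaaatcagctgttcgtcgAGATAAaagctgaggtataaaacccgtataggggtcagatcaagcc
Mcpt8: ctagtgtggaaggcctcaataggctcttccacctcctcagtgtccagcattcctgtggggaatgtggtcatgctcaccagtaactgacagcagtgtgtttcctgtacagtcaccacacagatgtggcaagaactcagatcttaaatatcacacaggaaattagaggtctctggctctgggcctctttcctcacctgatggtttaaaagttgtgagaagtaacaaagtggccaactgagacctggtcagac
Hdc: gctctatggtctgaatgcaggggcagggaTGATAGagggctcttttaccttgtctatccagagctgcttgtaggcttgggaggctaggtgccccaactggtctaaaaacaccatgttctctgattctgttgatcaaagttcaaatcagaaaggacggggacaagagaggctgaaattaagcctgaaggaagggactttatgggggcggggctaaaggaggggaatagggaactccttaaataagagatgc
Prss34: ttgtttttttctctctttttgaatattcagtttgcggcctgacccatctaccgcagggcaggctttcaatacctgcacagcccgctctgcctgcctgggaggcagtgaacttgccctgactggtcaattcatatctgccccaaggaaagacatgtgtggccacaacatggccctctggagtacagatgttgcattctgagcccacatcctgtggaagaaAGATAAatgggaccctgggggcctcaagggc
Ms4a2: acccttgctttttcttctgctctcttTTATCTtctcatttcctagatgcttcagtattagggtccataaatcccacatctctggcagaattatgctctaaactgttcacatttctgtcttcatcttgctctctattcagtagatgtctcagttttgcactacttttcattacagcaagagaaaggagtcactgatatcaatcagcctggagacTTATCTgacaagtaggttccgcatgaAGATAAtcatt

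At least 1 of these words was found in 7 of the 8 stretches, against 26.5% of 32851 stretches of the same length before all RefSeq starts. Within the last 100 bases before the start a word was found in 5 of the 8, against 10.4% of all. The stretches of all starts were not matched to the 8 in base composition, so these shares do not show an enrichment particular to these genes. In Cpa3 the word began 46 bases before the start, in Prss34 31 bases before it, and Ms4a2 held words beginning 224, 37 and 11 bases before it. The Hdc word lay farther away, at 221 bases, and Mcpt8 held none. The chymases Cma1 and Mcpt4 and the receptor chain Fcer1a, all near 0 TPM, held a word as well, beginning 79, 103 and 92 bases before the start. The words thus did not separate the genes that were present from those that were not. A matching word is a description of the sequence and does not show that a factor binds there. RefSeq and GENCODE place some starts differently. The whole Hdc stretch lies inside the GENCODE span of the gene, and the Mcpt8 and Mcpt4 stretches overlap theirs in part.

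The 2 groups of protease genes sit in clusters, and in each cluster a basophil gene was present beside the chymase or tryptase genes Cma1, Mcpt4 and Tpsb2 at or near 0. The cluster limits used here were chosen after the values were seen. From Cma1 to Gzmb (chr14:55941451-56262260) the annotation has 15 protein-coding genes, all of them serine proteases of granules. Of these, 7 were listed at 0 in all mice, 5 had a mean above 0 but under 0.1 TPM, with no single value above 0.178 TPM, and 3 had a mean of at least 1 TPM. The 3 were Mcpt8, its neighbour Ctsg, the cathepsin G gene of early neutrophil granules (618, 376 and 552 TPM), and Gzmb, the granzyme B gene at the end of the cluster (6.81, 2.14 and 2.38 TPM). All 3 were highest in mouse 1 and lowest in mouse 2. Mouse 1 was also the highest for 48.6% of genes with a mean of at least 1 TPM. From Prss34 to Tpsg1 (chr17:25298394-25374442) there are 6 protein-coding genes, of which Prss34 was present and the other 5 (Prss28, Prss29, Tpsab1, Tpsb2 and Tpsg1) were listed at 0 in all mice.

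**Figure D2:**
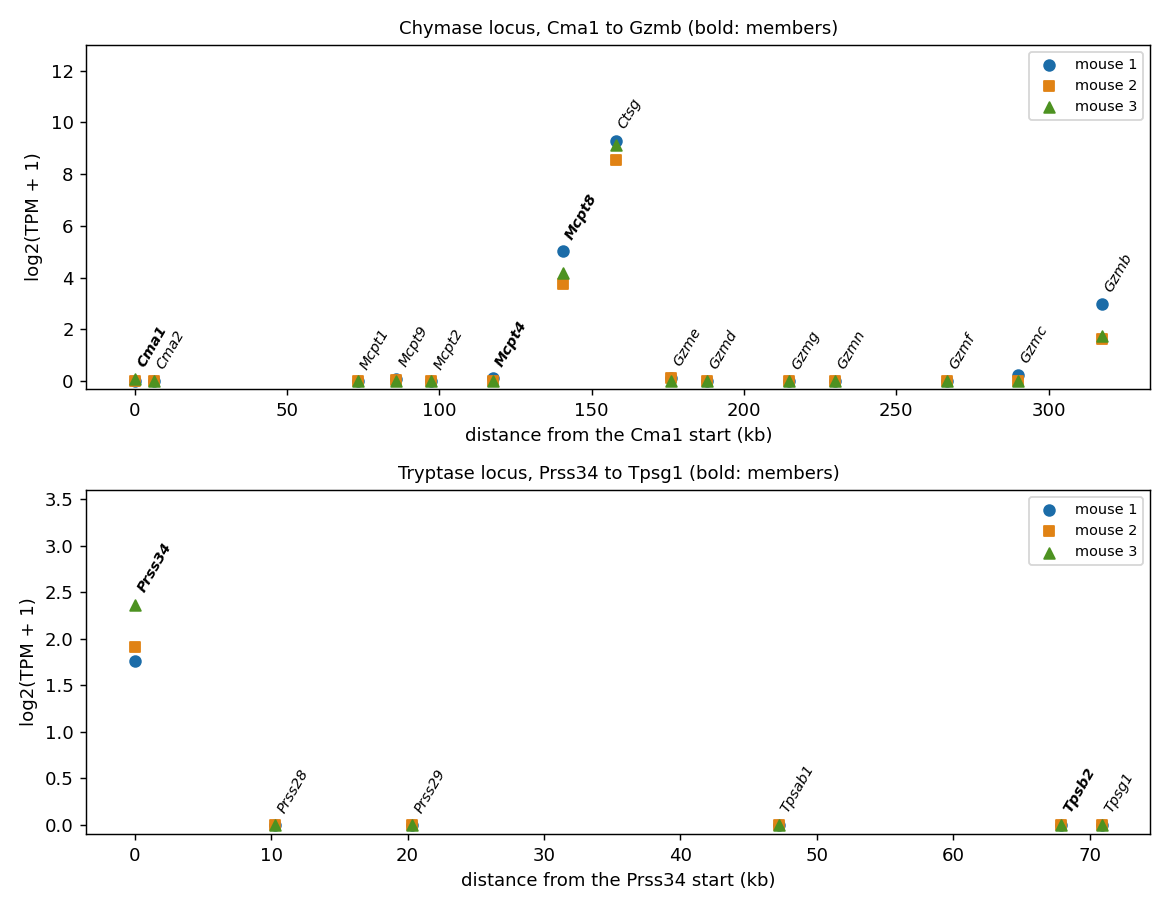
Level on the log2(TPM + 1) scale of every protein-coding gene of the chymase cluster (top, by distance from the Cma1 start in kb) and of the tryptase cluster (bottom, by distance from the Prss34 start in kb), 1 point per mouse. In the chymase cluster 3 of 15 genes rise off the zero line, Mcpt8, Ctsg and Gzmb, and in the tryptase cluster 1 of 6, Prss34.

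Near-identical copies could move reads between such genes, so stretches of 31 bases shared with transcripts of other genes were counted in GENCODE M21. None of the stretches of Cpa3, Mcpt8, Prss34 and Fcer1a was shared. The shares were 12.2% for Mcpt4, mostly with Cma2, 10.6% for Cma1, 4.03% for Ms4a2, 0.557% for Tpsb2 and 0.487% for Hdc. By this count shared reads could affect Mcpt4 and Cma1 most, although Cma2 was itself listed at 0 in all mice. The values of Fcer1a and Tpsb2, also at or near 0, are uncertain too because read depth is unknown.

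How far the genes differed between mice was read against all genes with a mean of at least 1 TPM. A difference of at least 1 log2 unit between the highest and the lowest mouse, on the log2(TPM + 1) scale, was found for 2 of the 5 genes that passed this filter, Cpa3 (1.90) and Mcpt8 (1.26), against 8.57% of the 15181 genes tested. Both had mouse 1 at the top; a difference of this size with mouse 1 at the top was found for 3.31% of genes. With mouse 2 or mouse 3 at the top it was found for 2.53% and 2.73% of genes and for 0 of the 5. Hdc lay just under it at 0.97, Prss34 at 0.61 and Ms4a2 at 0.45. Cpa3 was also at least 1 log2 unit higher in mouse 1 than in each of the other mice, as were 1.22% of genes, whereas Mcpt8 exceeded mouse 3 by 0.82. Without mouse 1 the count was 0, so both differences rest on that library. Without mouse 2 it was 1, Cpa3, so the difference of Mcpt8 rests on mouse 2 as well. With 1 group there is no test of a difference between mice.

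The genes were split over which mouse was highest. Cpa3, Mcpt8 and Ms4a2 were highest in mouse 1, as were 48.6% of genes with a mean of at least 1 TPM, and Hdc and Prss34 were highest in mouse 3, as were 20.3%. None of the 5 was highest in mouse 2, against 31.1% of genes. These shares are of only 5 genes and do not set the list apart. After scaling to a common upper quartile each of the 5 kept its highest mouse, while the shares of all genes became 34.2%, 34.5% and 31.3% for mice 1, 2 and 3.

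Summed over the 9 genes, the level was 103, 44.8 and 63.5 TPM in mice 1, 2 and 3. Cpa3 made up 50.5% of the sum in mouse 1, 32.6% in mouse 2 and 20.7% in mouse 3. Hdc ran the other way, with 15.2%, 30.9% and 44.1%, while the share of Mcpt8 was 30.5%, 28.0% and 27.3%. The sum therefore differed 2.29-fold between mice. Its makeup differed too, but not in the order of the sum: mouse 1 was led by Cpa3 and mouse 3 by Hdc, while mouse 2, with the lowest sum, lay between them in both shares.

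**Figure D3:**
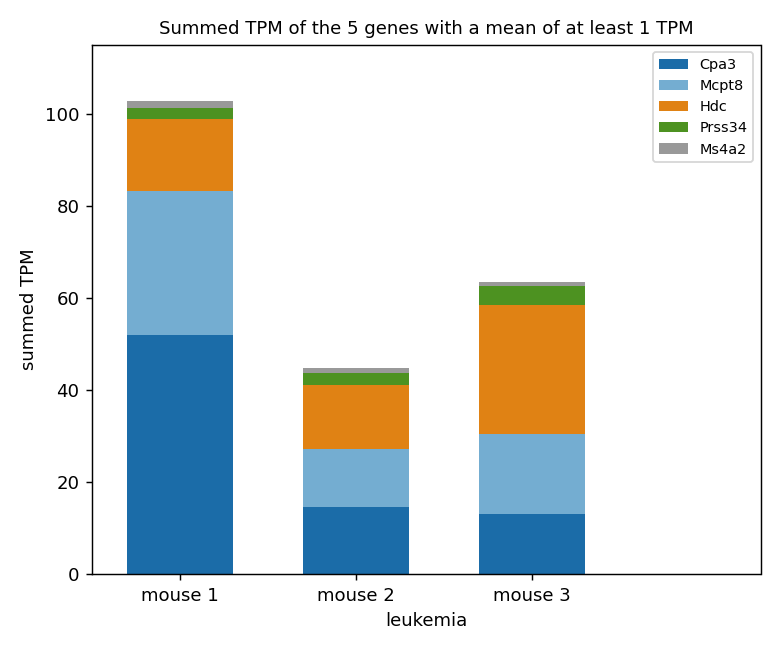
Summed TPM (vertical axis) of the 5 genes with a mean of at least 1 TPM in each leukemia, each bar divided by gene. Mouse 1 has the tallest bar, with Cpa3 as its largest part, and in mouse 3 Hdc is the largest part.

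The transcription factors of the lineage were all detected, 10 of 10 at a TPM of at least 1 in every mouse, against 50.7% of all genes. Ikzf1 (221 ± 5.55 TPM), Spi1, listed under its older symbol Sfpi1 (225 ± 39.2 TPM), and Runx1 (88.3 ± 9.71 TPM; all SD, n = 3) were the most abundant; all serve blood cells in general. Gata2, which mast cells and basophils need, was at 44.3, 16.8 and 16.9 TPM. Mouse 1 exceeded mice 2 and 3 by factors of 2.64 and 2.62, and so held the most Gata2 as it did the most Cpa3. Gata1, used by erythroid, mast and megakaryocyte cells, was at 9.60, 7.62 and 19.5 TPM, highest in mouse 3 as Hdc was. Mitf, a factor of mature mast cells, was at 2.39, 8.68 and 3.94 TPM and so was lowest in the mouse with the most Cpa3. These 3 of the 10 factors differed by at least 1 log2 unit, each with another mouse at the top. The share over all genes with a mean of at least 1 TPM was 8.57%.

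Of 8 growth factor and cytokine receptor genes, 7 had a TPM of at least 1 in every mouse, against 50.7% of all genes. The most abundant were Kit (141 ± 8.10 TPM), Csf2rb, the beta chain that several cytokine receptors share (88.6 ± 10.3 TPM), and Crlf2, a subunit of the TSLP receptor (55.2 ± 9.63 TPM; all SD, n = 3). Kit varied 1.12-fold over the mice, so the wide range of Cpa3 was not matched by the enrichment marker. Il18r1, a receptor chain for interleukin-18, was at 52.5, 26.4 and 18.4 TPM, a 2.85-fold range with mouse 1 at the top. Csf2rb2, the beta chain particular to mouse interleukin-3 signalling, was at 11.9, 24.9 and 17.5 TPM, lowest in mouse 1. Il1rl1, the interleukin-33 receptor of mast cells and basophils, was at 9.59 ± 1.98 TPM (SD, n = 3).

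The genes that carry the signal of the IgE receptor were all present, 12 of 12 at a TPM of at least 1 in every mouse. Over all genes the share was 50.7%. Inpp5d, the lipid phosphatase that restrains it (404 ± 79.8 TPM), Fcer1g (248 ± 17.0 TPM) and the kinase Lyn (221 ± 40.6 TPM; all SD, n = 3) were the most abundant, and these serve other myeloid receptors too. A difference of at least 1 log2 unit was found for 1 of the 12, against 8.57% of genes with a mean of at least 1 TPM. It was Lat, the membrane adaptor of T cells, mast cells and megakaryocytes. It was at 22.8, 10.9 and 10.6 TPM, with mouse 1 above mice 2 and 3 by factors of 2.09 and 2.16. The other signalling genes varied by at most 1.54-fold, while Ms4a2 and Fcer1a, the chains particular to this receptor among those measured, stayed at or under 1.37 TPM.

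Among 15 other genes of granules and mediators, 9 had a TPM of at least 1 in every mouse and 5 were listed at 0 in all. The shares over all genes were 50.7% and 22.8%. The 5 were Tpsab1, Tpsg1, Mcpt1, Mcpt2 and Cma2, proteases of the same clusters. The abundant ones were Srgn, the serglycin proteoglycan that packs granules in many blood cells (626 ± 27.6 TPM), Alox5ap, which feeds leukotriene synthesis (474 ± 66.0 TPM), and Ndst2, an enzyme of heparin synthesis (28.3 ± 4.77 TPM; all SD, n = 3). Of the 9 with a mean of at least 1 TPM only Gzmb differed by at least 1 log2 unit, against 8.57% of all such genes. In it mouse 1 was above mice 2 and 3 by factors of 3.19 and 2.86. Of 8 surface and cytokine genes of mature cells, 3 were at a TPM of at least 1 in every mouse, against 50.7% of all genes. They were the integrin chain Itgb7 (195 ± 44.9 TPM), the basophil receptor Cd200r3 (4.90 ± 0.982 TPM) and Il4, interleukin-4 (2.18 ± 1.08 TPM, all SD, n = 3). Mrgprb2, a receptor of connective tissue mast cells, was listed at 0 in all mice.

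**Figure D4:**
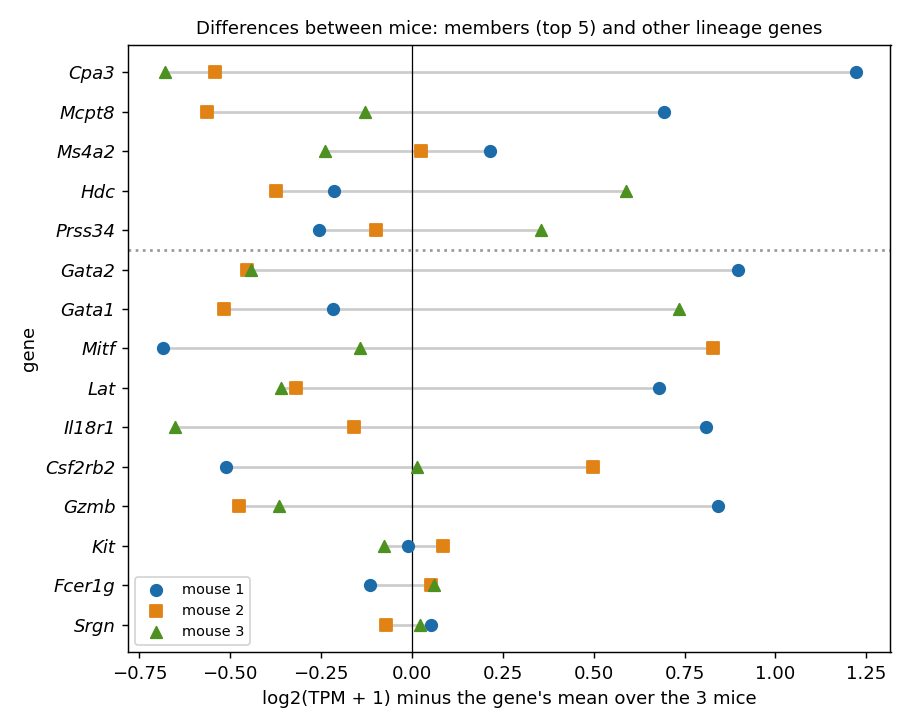
Level in each mouse minus the gene's mean over the 3 mice (horizontal axis, log2 units), for the 5 of the 9 genes with a mean of at least 1 TPM (above the dotted line) and 10 other lineage genes. The 10 are the lineage genes at least 1 log2 unit apart between mice, with Kit, Fcer1g and Srgn added. Gata2, Lat, Il18r1 and Gzmb have mouse 1 at the right as Cpa3 and Mcpt8 do. Gata1 has mouse 3 there as Hdc and Prss34 do. Mitf and Csf2rb2 have mouse 2 at the right and mouse 1 at the left, and Kit, Fcer1g and Srgn barely spread.

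Genes whose profile over the 3 mice was closest to that of Cpa3, by Euclidean distance between centred log2(TPM + 1) values, were Gimap5 (distance 0.01), a GTPase gene of lymphocytes, the aldo-keto reductase genes Akr1c13 (0.06) and Akr1c19 (0.08), Serpina3g, a protease inhibitor (0.10), and Podxl, a surface sialomucin of progenitors and vessels (0.10). Serpina3g, the most abundant of them, was at 543, 158 and 133 TPM. With 3 mice a close profile is easily found, and with a pseudocount of 0.1 only 2 of these 5 genes were among the closest. Of the 4 other genes with a mean of at least 1 TPM none was among them: Mcpt8 lay at a distance of 0.76, with 288 of 15180 genes closer, and Ms4a2, Prss34 and Hdc at 1.24, 1.86 and 1.92.

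Markers of other cells were read beside these levels, with counts over the genes of each list that had a mean of at least 1 TPM. Of all genes with such a mean 48.6%, 31.1% and 20.3% were highest in mice 1, 2 and 3. Late neutrophil granule genes summed to 2476, 6474 and 21540 TPM in mice 1, 2 and 3, with 9 of 9 highest in mouse 3, the mouse with the most Hdc and Prss34 and the least Cpa3. Early neutrophil granule genes summed to 2594, 1857 and 3591 TPM, the order of mice of Hdc, with 3 of 4 highest in mouse 3. Monocyte and macrophage genes summed to 725, 1112 and 2136 TPM, the order of Prss34, with 4 of 6 highest in mouse 3 and 2 in mouse 2. Erythroid genes summed to 212, 133 and 349 TPM, also the order of Hdc, with 6 of 7 highest in mouse 3. B cell genes summed to 47.4, 89.7 and 124 TPM, again in the order of Prss34, with 3 of 4 highest in mouse 3. In these lists mouse 3 held the highest sum, as it did for Hdc and Prss34.

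Mouse 3 also held the highest sum in the eosinophil and megakaryocyte lists, over narrower ranges of 1.135-fold and 1.311-fold. Single genes of these lists had different mice at the top. Eosinophil genes summed to 146, 144 and 164 TPM, with 6 of 7 highest in mouse 3. The exception was Ear2, the most abundant of them, at 117, 96.8 and 81.3 TPM, whereas Prg2 was at 21.3, 34.2 and 58.7 TPM and Epx at 0.105, 1.02 and 2.23 TPM. Megakaryocyte genes summed to 114, 93.3 and 122 TPM, with 3 of 8 highest in mouse 1 and 4 in mouse 3. Among them Itga2b, an integrin chain that progenitors also carry, was at 49.0, 15.5 and 18.2 TPM and so had mouse 1 at the top as Cpa3, Mcpt8 and Gata2 did. Pf4, a platelet chemokine gene, was at 6.73, 20.4 and 51.0 TPM, with mouse 3 at the top. Vwf, the most abundant gene of the megakaryocyte list, was at 38.0, 44.1 and 27.9 TPM, with mouse 2 at the top and mouse 3 lowest.

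Dendritic cell genes summed to 1143, 2057 and 1325 TPM, with 0 of 8 highest in mouse 1 and 5 in mouse 2. T and NK cell genes summed to 165, 119 and 162 TPM, with 2 of 6 highest in mouse 1 and 3 in mouse 3. Most of that sum was Nkg7, a granule membrane gene of cytotoxic cells, at 153, 101 and 143 TPM. Cd3d was at 4.69, 6.35 and 7.13 TPM and Cd4 at 3.99, 5.27 and 4.40 TPM. No listed gene of these cell types was at 0 in all mice. The part of such cells in the levels of Hdc, Prss34, Cpa3 and Mcpt8 was not tested.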

How the data were processed

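The table gives 1 value per gene symbol and sample. Per the submitters' processing notes kallisto and mm10 were used, with no version or role given. The deposited values were taken as TPM: the file's name calls them log2 FPKM, but they are linear, and the sums of the 3 columns differ by 0.276% of their mean. Annotation, gene summing and filters are not given in the sources used here, and the labels name both ribosomal depletion and an mRNA kit. Another 3 per-sample columns, of another series, were not used. Of 28987 rows, 795 without a symbol (0.532% to 0.608% of a column) and 27 with a date in its place were left out, and 90 symbols on several rows, none of them among the 9 genes, were summed. Levels were put on the log2(TPM + 1) scale, with detection at 1 TPM and, for differences between mice, a filter at a mean of 1 TPM. Coordinates are GENCODE M21 on GRCm38, the assembly of mm10.

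The genes and the 16 lists beside them were chosen with earlier results of these data known. Genes named from the lineage lists are the 3 most abundant and those at 0 in all mice. Those at least 1 log2 unit apart with a mean of at least 1 TPM are named as well. Naming the 3 most abundant was planned for every list, but it was not kept to for most lists of other cells. Other genes were named after their values were seen. Of 147 list entries 143 were matched, 3 through an older symbol. Nothing says more of the replicates than that they are 3 mice. The counts and profile distances were tested on simulated data. Alternatives covered the pseudocount, thresholds, filter, scaling, each mouse left out and, added after the values were seen, the linear ratio. Python 3.11.15, numpy 2.4.6, pandas 2.3.3 and matplotlib 3.10.9 were used.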

Additional observations from a re-analysis of the deposited data

How the results depend on the processing

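Of 157 recomputed values 141 kept within the spread between mice or, for counts, within 1.5 times. Upper-quartile scaling and the level counted as detected moved none beyond that. A pseudocount of 0.1, which enters directly into low values on a log scale, moved the median of the 9 genes from 1.03 to 0.18, and the means of Prss34 to 1.64, Ms4a2 to 0.18, Fcer1a to -2.78, Mcpt4 to -3.03, Cma1 to -3.07 and Tpsb2 to -3.32. It moved the list medians of other granule and mediator genes to 1.95, of surface and cytokine genes to -0.74, of T and NK cell genes to 0.87 and of B cell genes to 0.48, and left 2 of the 5 genes closest to Cpa3. The number of genes at least 1 log2 unit apart between mice, 2 of 5, ranged from 0 (without mouse 1) to 2 when a mouse was left out. It was 3, with Hdc added, under upper-quartile scaling, under the pseudocount of 0.1 and as a linear ratio of at least 2. Of genes with a mean of at least 1 TPM and no value of 0, 13.2% reached that linear ratio. The share over all genes was not computed for the other alternatives of this count. Without the filter 5 of the 9 genes were highest in mouse 1, which adds Fcer1a and Mcpt4 at under 0.1 TPM. With a mean of at least 5 TPM 1 was highest in mouse 3. The shares over all genes were not computed without the filter or at this higher filter, so nothing is read from these counts. No paired analysis was possible because all 3 samples belong to the same group. TPM holds no depth, so the counting error of values under 1 TPM is unknown.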
